A study of Mus musculus with 24 samples.

Results

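Macrophages that lack STAT6 were compared with wild-type macrophages while both were kept with IL-4. The 6 arrays were chosen by their titles, as the IL-4-treated arrays of Stat6 knockout (KO) and wild-type (WT) mice without rosiglitazone, 6 of the 24 arrays in the series. The cells were bone marrow-derived macrophages of C57Bl/6 mice, and total RNA of each culture was hybridised to an Affymetrix mouse whole-genome array. The KO IL-4 group held KO mice 4, 5 and 6, and the WT IL-4 group held WT mice 1, 2 and 3, with 1 array per mouse. Both groups received M-CSF at 20 ng/ml throughout, IL-4 at 20 ng/ml and the vehicle of rosiglitazone, a mix of DMSO and ethanol, and both were cultured for 10 days. The same mice gave control arrays without IL-4 and arrays with the PPARγ ligand rosiglitazone (RSG, 1 µM), which are used below to show how far the difference depended on IL-4 or on RSG, and which also enter the estimate of the spread. The KO mice carried null alleles of Stat6 in all their cells, the marrow progenitors included. The arrays measured whole cultures, in which fewer cells of a type and less RNA per cell cannot be told apart.

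IL-4 binds a receptor whose associated Janus kinases phosphorylate STAT6, a transcription factor that then enters the nucleus and binds DNA as a dimer. In macrophages this pathway is known for alternative activation, a state with lectin receptors, chitinase-like and resistin-like secreted proteins, lipid uptake and cell fusion. IL-4 also acts on other marrow-derived cells, and mast cells and basophils are among those that respond to it and make it.

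Each value was a ratio of a probe set to its own median over the arrays, and it is given on the log2 scale, so 0 is the usual level of that probe set in the series and no absolute level is known. A difference is the KO mean minus the WT mean, ± SE from limma fitted to all 24 arrays. Called genes had a Benjamini-Hochberg adjusted p below 0.05 and a change of 1.5-fold or more. Nothing in the sources says that these mice were littermates or were matched in background beyond the strain label. The p-values rest on a spread between cultures pooled over all 8 groups of 3 arrays. Array medians over all probe sets lay between -0.22 and -0.12 on the KO IL-4 arrays and between 0.04 and 0.06 on the WT IL-4 arrays, so the median difference was -0.25 for probe sets and -0.32 for genes. After centring each array on its median the median gene difference was -0.11, and after quantile normalization it was -0.13. Counts of lower genes are therefore given also under these scalings where they moved by 1.5 times or more. The within-group SD had a median of 0.34 in both groups.

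Stat6 itself was measured first. Its log2 ratio was -1.90, -1.98 and -1.64 on the KO IL-4 arrays, against 0.89, 0.91 and 1.01 on the WT IL-4 arrays, a difference of -2.77 ± 0.12 (adjusted p = 3.2e-11). The other Stat6 probe set gave -2.12, -1.48 and -1.57 in KO and 0.85, 1.01 and 1.04 in WT. Every KO array lay below every WT array on both probe sets. Whether these probes fall inside the deletion is not known here, so the check shows less transcript and not which part of it.

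With IL-4 present, 3126 probe sets were higher (6.94% of 45037) and 7794 lower (17.3%) in KO macrophages. By gene, 1503 of 18193 were higher (8.26%) and 4009 lower (22.0%), so that 27.3% of the called genes were higher. That share depended on the scaling, and it was 42.7% after centring (1912 higher, 2568 lower) and 40.8% after quantile normalization (1491 higher, 2165 lower). The KO and WT arrays did not overlap in 5432 of the called genes (98.5%) and in 8911 of all genes (49.0%). The changes were of unequal size. At 4-fold or more, 736 genes were higher and 470 lower, and at 16-fold or more 217 were higher and 63 lower. Without IL-4, the same genotypes differed in 33 genes (0.181% called either way). Of these 7 were higher and 26 lower in KO, and 8 were higher and 13 lower without the WT control array of mouse 2. The genotype difference with IL-4 was tested against the one without it, and it was higher in 1206 genes (6.63%) and lower in 2438 (13.4%).

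**Figure D1:**
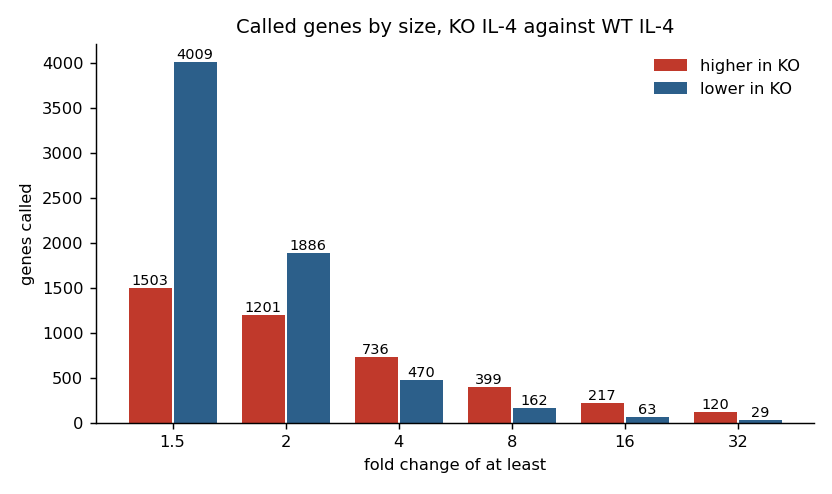
Number of genes called between KO IL-4 and WT IL-4 macrophages (vertical axis) at or above each fold change (horizontal axis), with genes higher in KO left of genes lower in KO. Lower genes were more numerous at 1.5-fold (4009 against 1503 higher), and higher genes were more numerous at 16-fold (217 against 63 lower).

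The WT control arrays of mice 2 and 3 stood apart, each in other genes. Stromal fibroblast markers had a list mean of -0.50 to 0.42 on the KO control arrays. On the WT control arrays of mice 1, 2 and 3 it was 1.34, 2.97 and -0.18. With RSG and no IL-4 it was 1.3, 1.6 and 4.8 in KO mice 4, 5 and 6. In WT mice 1, 2 and 3 it was then -0.47, -0.08 and -0.26. These RSG arrays also enter the pooled spread. Retnla, the resistin-like protein also known as FIZZ1, had log2 ratios of -2.58, -1.54 and -2.26 on the KO control arrays, against -1.89, -2.10 and 5.88 on the WT control arrays of mice 1, 2 and 3. The high value was that of WT mouse 3. This array does not enter the KO minus WT difference with IL-4, but it enters its SE and p through the pooled spread, and it enters the test against the control arrays. Without it 1159 genes had a higher and 1936 a lower difference with IL-4 than without.

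Most markers of alternative activation were lower. Of 24 measured genes on that list 16 were lower and 5 higher in KO IL-4 macrophages, with a median of -1.59 beside -0.32 for all genes, and 15 and 5 were called after centring and after quantile normalization. Retnla had log2 ratios of 0.62, -0.29 and 0.24 in KO with IL-4, against 7.73, 7.66 and 7.68 in WT with IL-4, which is 180-fold lower (-7.50 ± 1.29, adjusted p = 2.0e-04, or 3.4e-11 without the WT control array of mouse 3). The groups were more than 7 log2 units apart on every pair of arrays. Its genotype difference with IL-4 less that without was -4.74 (adjusted p = 0.095) with all control arrays and -7.37 ± 0.45 (adjusted p = 2.6e-08) without the WT control array of mouse 3. Slc7a2, a transporter of arginine and other cationic amino acids, gave -0.21, 0.18 and 0.04 in KO and 5.73, 5.85 and 5.82 in WT (-5.80 ± 0.24, adjusted p = 1.5e-11, or 0.068 in a fit with a variance trend). On the control arrays it lay between -0.30 and -0.04 in KO and between -0.31 and 0.69 in WT, and the KO IL-4 arrays overlapped those of cultures that had no IL-4. Pdcd1lg2, which encodes the PD-1 ligand PD-L2, gave 0.04, 0.26 and 0.63 in KO and 4.10, 4.02 and 4.18 in WT (-3.79 ± 0.34). All KO IL-4 arrays lay above the KO control arrays, which ranged between -2.20 and -1.72. Mrc1, the mannose receptor, gave -1.07, -0.85 and -0.95 in KO and 1.13, 0.94 and 1.06 in WT. Igf1, a growth factor, was lower by -1.41 ± 0.12 and Tgm2, transglutaminase 2, by -1.72 ± 0.18.

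The 5 members of the list that were higher in KO included 2 enzymes. F13a1, the coagulation factor XIII A chain made by monocytes and macrophages, had log2 ratios of 3.24, 3.34 and 3.44 in KO IL-4 and -3.25, -3.75 and -4.44 in WT IL-4 cultures, a difference of 7.15 ± 0.46 (adjusted p = 2.3e-09). Alox15, a lipoxygenase found in alternatively activated macrophages and also in eosinophils, gave 4.11, 3.53 and 4.21 in KO and 0.03, -1.78 and -1.56 in WT (5.05 ± 0.91). The other three were secreted proteins: the chemokine Ccl22 (3.26 ± 0.61), the anti-inflammatory cytokine Il10 (2.11 ± 0.28) and the IL-1 receptor antagonist Il1rn (1.75 ± 0.28). All 5 had KO arrays above the WT arrays without overlap, and arrays did not overlap in 98.5% of all called genes.

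The promoters of some of these genes hold a STAT6-type palindrome, TTCNNNNGAA, in which any 4 bases separate TTC from GAA. The promoter windows below surround the gene's start, 5′ to 3′ on the gene's strand, from RefSeq annotation of build GRCm38.p6. They are shown because their genes had large differences and a match, which stands in capitals. Acp5, the tartrate-resistant acid phosphatase of osteoclasts, was named after its values were seen.
Retnla chr16:48842359-48842658 (plus strand): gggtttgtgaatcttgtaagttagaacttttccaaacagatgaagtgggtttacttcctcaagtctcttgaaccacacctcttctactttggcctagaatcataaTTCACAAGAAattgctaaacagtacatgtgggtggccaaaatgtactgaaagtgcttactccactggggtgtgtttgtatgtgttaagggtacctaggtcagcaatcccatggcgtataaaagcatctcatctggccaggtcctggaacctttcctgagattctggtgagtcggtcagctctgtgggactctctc
Pdcd1lg2 chr19:29410669-29410968 (plus strand): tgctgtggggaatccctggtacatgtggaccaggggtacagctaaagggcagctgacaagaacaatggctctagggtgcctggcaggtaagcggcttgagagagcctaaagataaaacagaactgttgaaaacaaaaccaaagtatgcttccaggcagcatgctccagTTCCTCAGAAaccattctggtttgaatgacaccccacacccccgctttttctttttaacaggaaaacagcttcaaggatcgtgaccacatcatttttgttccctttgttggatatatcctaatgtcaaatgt
Acp5 chr9:22130549-22130848 (minus strand): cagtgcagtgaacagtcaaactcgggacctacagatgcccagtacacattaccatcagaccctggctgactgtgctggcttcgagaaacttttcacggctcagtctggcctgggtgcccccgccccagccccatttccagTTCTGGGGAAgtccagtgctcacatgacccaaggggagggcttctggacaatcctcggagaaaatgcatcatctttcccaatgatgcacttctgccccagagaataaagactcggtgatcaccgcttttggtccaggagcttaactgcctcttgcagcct
Acp5 had log2 ratios of -0.49, 0.34 and 0.26 in KO IL-4 and 4.34, 4.50 and 3.95 in WT IL-4 cultures (-4.22 ± 0.53). Relative to the gene's start, the match began at -145 in Retnla, at -82 in Pdcd1lg2 and at -110 in Acp5. The palindrome stood in 6.57% of 3271 lower genes with a matched promoter, 6.93% of 1183 higher genes and 6.94% of 14452 genes tested, and in 6.95% of all 32851 promoter windows. Among alternative activation genes 5 of 16 matched promoters held it, and 3 of 16 among the interferon-stimulated genes described below. With 3 bases between TTC and GAA, the palindrome stood in 3 of 16 and 5 of 16 of these, and in 8.57% of genes tested. These letters read on both strands are a description and no measure of STAT6 binding, which was not assayed on these arrays.

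**Figure D2:**
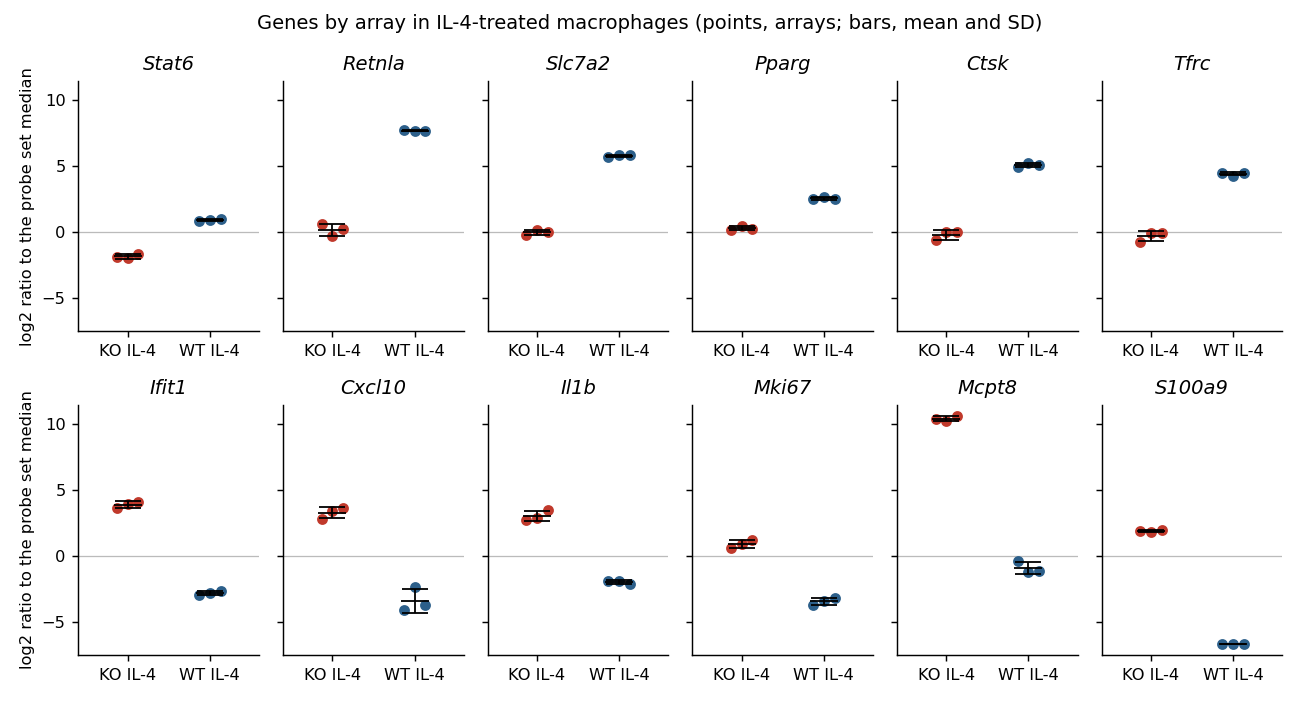
Log2 of each probe set's ratio to its median over the arrays (vertical axis) of 12 genes on the 3 KO IL-4 arrays (left, red points) and the 3 WT IL-4 arrays (right, blue points), with the mean and SD as bars. The genes were chosen among called genes, of which 98.5% had groups that did not overlap, as in all 12 shown. The upper row was lower in KO. The lower row was higher in KO, with S100a9 at the lowest value of the table, -6.64, on all 3 WT arrays.

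Transcription factors linked to IL-4 moved in 1 direction. Of 15 measured, 11 were lower and 0 higher in KO IL-4 macrophages (median -1.25), and 9 were lower under either other scaling. Egr2, a zinc finger factor of macrophage activation, had log2 ratios of -0.21, 0.29 and 0.02 in KO and 2.73, 2.60 and 2.53 in WT (-2.58 ± 0.21, adjusted p = 3.8e-08). Pparg, the nuclear receptor that RSG binds, gave 0.15, 0.47 and 0.27 in KO and 2.54, 2.69 and 2.50 in WT. That is 4.86-fold lower (-2.28 ± 0.24, adjusted p = 1.1e-06). The KO control arrays lay between -0.65 and 0.15, at or below the lowest KO IL-4 array. Bhlhe40, a helix-loop-helix repressor, was lower by -2.68 ± 0.31, Mitf, a factor of osteoclasts and lysosomes, by -1.29 ± 0.12, and Cebpa, a myeloid lineage factor, by -1.25 ± 0.12. Myc (-0.35), Kdm6b (-0.38), Tfec (-0.43) and Cebpb (-0.48) were not called.

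Genes that macrophages share with osteoclasts and use in fusion were lower in 9 of 14 cases, with 0 higher (median -1.66). After centring 8 were lower and 1 higher, and after quantile normalization 8 were lower. Ctsk, the collagen-degrading cathepsin K, had log2 ratios of -0.61, 0.00 and 0.05 in KO IL-4 and 4.99, 5.23 and 5.10 in WT IL-4 cultures, 39.3-fold lower (adjusted p = 1.2e-08). Atp6v0d2, a subunit of the proton pump needed for fusion, was lower by -2.65 ± 0.17, the integrin Itgb3 by -2.14 ± 0.26, the tetraspanin Cd9 by -1.11 ± 0.10 and the creatine kinase Ckb by -1.76 ± 0.18. The receptor Tnfrsf11a (RANK, -0.15) and its downstream factor Nfatc1 (0.48) were not called.

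Lipid genes that PPARγ regulates were lower in 10 of 18 cases and higher in 2 (median -0.83). Mgll, a monoglyceride lipase, gave log2 ratios of -0.59, -0.30 and -0.53 in KO IL-4 and 2.25, 2.54 and 2.25 in WT IL-4 macrophages (-2.82 ± 0.23, adjusted p = 5.3e-08). The groups did not overlap, and the KO values lay among those of the KO control arrays, -0.66 to -0.20. Cd36, a receptor for oxidised lipids, was lower by -2.33 ± 0.20, Fabp4, a fatty acid binding protein, by -1.64 ± 0.20, Hilpda, a lipid droplet protein, by -1.77 ± 0.22 and Pnpla2, a triglyceride lipase, by -1.35 ± 0.12. The triglyceride synthesis enzyme Dgat2 was higher (1.45 ± 0.28), a call that the methods' t-test did not make. G0s2, which inhibits Pnpla2, was higher by 1.29 ± 0.39, a call that was lost in the fit on the 6 arrays alone and without KO mouse 4 or 6 or WT mouse 1 or 2.

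Many mitochondrial genes were lower, none of those listed by more than 1.44 on the log2 scale. Of 19 genes of mitochondrial fatty acid oxidation 14 were lower (median -0.79), but 8 after centring and 6 after quantile normalization, so these counts followed the scaling. Hadha, the alpha subunit of the trifunctional protein, had log2 ratios of -0.72, -0.38 and -0.40 in KO and 0.92, 0.95 and 0.94 in WT (-1.44 ± 0.11), and its call held under both scalings. Hadhb, the beta subunit, was lower by -1.34 ± 0.12 and Etfa, which passes on electrons from the dehydrogenases, by -1.36 ± 0.17. Of 29 genes of the TCA cycle and respiratory chain 22 were lower and 1 higher (median -0.65), and 9 and 7 were lower under the other scalings. Atp5b, the ATP synthase beta chain, was lower by -1.28 ± 0.16. It lies close to Stat6, among the 40 measured genes nearest to it (median -0.26). Of these 8 were lower (20%) and 2 higher (5%), near the 22.0% and 8.26% of all genes. After centring 5 of these neighbours were lower and 4 higher, beside 2568 lower and 1912 higher of all 18193 genes. After quantile normalization 5 were lower and 2 higher, beside 2165 and 1491 of all genes.

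Lysosomal enzymes and pump subunits were lower in 20 of 28 cases, or 16 and 14 under the other scalings, with 0 higher (median -0.89). Ctsl, cathepsin L, had log2 ratios of -0.49, -0.39 and -0.70 in KO and 3.32, 3.08 and 3.23 in WT, 13.3-fold lower (adjusted p = 5.1e-11). Every KO array was at least 3 log2 units below every WT array. The proton pump subunits Atp6v0a1 and Atp6v1b2 were lower by -2.62 ± 0.13 and -1.66 ± 0.11. The lysosomal proteases Tpp1 and Ctsb were lower by -1.76 ± 0.14 and -1.06 ± 0.10. Genes of ER stress and the amino acid response were lower in 13 of 16 cases, or 8 under either other scaling (median -0.95), among them the asparagine synthetase Asns (-2.38 ± 0.24), the stress-induced factor Atf3 (-1.61 ± 0.15) and the cystine transporter Slc7a11 (-2.04 ± 0.27).

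Other transcripts fell further than most list members. Tfrc, the transferrin receptor that takes up iron, had log2 ratios of -0.71, -0.05 and -0.08 in KO IL-4 and 4.48, 4.30 and 4.50 in WT IL-4 cultures, 26.2-fold lower (-4.71 ± 0.19, adjusted p = 9.1e-12). The KO IL-4 arrays overlapped the KO control range of -0.21 to 0.00, and WT controls reached 0.61. Epas1, the hypoxia-inducible factor HIF-2α, behaved otherwise: it gave -2.71, -1.97 and -1.88 in KO and 4.10, 4.26 and 4.30 in WT (-6.40 ± 0.26), and the KO control arrays, at 0.31 to 0.58, lay above the KO IL-4 arrays. Bex1, a small brain-expressed protein, followed the same order, at -1.80, -1.83 and -1.99 in KO IL-4, 4.08, 4.11 and 4.16 in WT IL-4, and 0.03 to 0.52 on KO control arrays. For both genes the fall below the KO control arrays passed the test (Epas1 -2.66, adjusted p = 1.6e-06, and Bex1 -2.17, adjusted p = 9.1e-07). The largest drop was that of Rnase2a, an eosinophil-associated ribonuclease gene of the mouse, at -10.08 ± 1.56. Its log2 ratios were -0.19, 0.22 and 0.75 in KO and 10.28, 10.38 and 10.35 in WT. Its call was lost in the fit with a variance trend (adjusted p = 0.97). Iron handling as a list was lower in 6 of 13 cases (46.2%, beside 22.0% of all genes), or 4 under either other scaling. It was higher in 2 (15.4%, beside 8.26%), the plasma ferroxidase Cp (5.29 ± 0.42) and the iron exporter Slc40a1 (1.43 ± 0.16).

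Interferon-stimulated genes, which cells switch on in response to interferon, were higher in KO in all 23 cases measured, with a median of 4.43 and a range of 1.15 to 6.70. The count was 23 under both other scalings. Ifit1, an RNA-binding antiviral protein, had log2 ratios of 3.64, 3.95 and 4.11 in KO IL-4 and -2.96, -2.80 and -2.65 in WT IL-4 macrophages, 104-fold higher (6.70 ± 0.22, adjusted p = 1.3e-12). Its control arrays lay between -0.11 and 0.40 in KO and between 0.02 and 0.46 in WT, so the KO IL-4 arrays were above and the WT IL-4 arrays below all cultures without IL-4. Ifit3, its relative, was higher by 6.34 ± 0.27, the enzyme Cmpk2 by 4.82 ± 0.23, the exonuclease Isg20 by 4.48 ± 0.21 and the receptor transporter Rtp4 by 5.65 ± 0.27. Stat2 (1.96 ± 0.21) and Irf9 (1.18 ± 0.13), which are parts of an interferon-activated transcription factor complex, were also higher. Of 13 genes of interferon sensing and signalling 5 were higher (38.5%) and 3 lower (23.1%), or 1 lower under either other scaling. Among all genes 8.26% were higher and 22.0% lower, so the lower share was near that of all genes. Of the interferon genes themselves, Ifnb1 (0.87) and Ifng (2.57) were not called. Of the receptors, Ifngr2 (-1.13 ± 0.15) was lower and Ifnar1 (0.72 ± 0.19) higher. Ifnar2, which pairs with Ifnar1, was called lower. That call was lost after centring (-0.44), after quantile normalization (-0.35) and without KO mouse 4. The proteasome and peptide transport genes Psmb9 (1.29 ± 0.15) and Tap1 (2.10 ± 0.27), which feed MHC class I, were higher.

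The interferon response element, read as GAAANNGAAA on either strand, stood in the promoters of 9 of 16 interferon-stimulated genes with a matched promoter. It was in 7.27% of the higher genes, 2.97% of the lower genes and 3.63% of all genes tested. The promoters of Ifit1, Ifit3 and Cxcl10 are shown because their genes had large differences and a match, and every match stands in capitals.
Ifit1 chr19:34640639-34640938 (plus strand): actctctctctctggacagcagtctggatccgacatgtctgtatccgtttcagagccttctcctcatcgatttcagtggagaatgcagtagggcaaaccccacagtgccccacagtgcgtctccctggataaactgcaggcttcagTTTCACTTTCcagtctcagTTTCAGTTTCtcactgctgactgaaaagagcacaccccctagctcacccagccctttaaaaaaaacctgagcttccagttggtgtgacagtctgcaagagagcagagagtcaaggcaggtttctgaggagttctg
Ifit3 chr19:34583279-34583578 (plus strand): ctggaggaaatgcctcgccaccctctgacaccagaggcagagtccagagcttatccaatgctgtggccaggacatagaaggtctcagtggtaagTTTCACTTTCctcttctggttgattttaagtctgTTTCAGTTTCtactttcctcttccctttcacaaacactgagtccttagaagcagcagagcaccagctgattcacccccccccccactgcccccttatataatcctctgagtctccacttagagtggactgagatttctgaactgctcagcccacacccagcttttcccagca
Cxcl10 chr5:92348840-92349139 (minus strand): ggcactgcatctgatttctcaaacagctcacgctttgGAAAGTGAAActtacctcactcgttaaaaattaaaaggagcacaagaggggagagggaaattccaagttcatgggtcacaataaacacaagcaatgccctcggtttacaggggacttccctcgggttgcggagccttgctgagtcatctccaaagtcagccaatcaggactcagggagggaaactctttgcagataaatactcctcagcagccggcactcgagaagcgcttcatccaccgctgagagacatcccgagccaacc
Relative to the gene's start the matches began at -104 and -85 in Ifit1, at -156 and -122 in Ifit3 and at -213 in Cxcl10. It stood in 3.44% of all promoter windows. The windows do not show which factor was bound.

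In macrophages treated with RSG as well as IL-4, the genotype difference was of a similar breadth, with 1446 genes higher (7.95%) and 3589 lower (19.7%) in KO. Those arrays come from the same 6 mice but are other cultures. Of the 1503 genes higher with IL-4, 1067 were higher there too (71.0%, and 73.8% of those higher with RSG). Of the 4009 lower genes 2884 were lower there too (71.9%, and 80.4% of those lower with RSG). Only 8 called genes were called the opposite way. The difference between the 2 genotype differences was called higher in 31 genes (0.170%) and lower in 82 (0.451%), and 21 of those 82 were interferon-stimulated genes. With RSG, Ifit1 averaged 1.40 in KO and -1.46 in WT, so its genotype difference was 2.85, smaller than without RSG by -3.85 ± 0.31 (adjusted p = 9.8e-06). For the list the median genotype difference was 2.04 with RSG, with 16 genes higher and 1 lower. That gene, named after its values were seen, was Usp18, a protease that limits interferon signalling, at -1.02 with RSG and 1.34 without. Mx2 and Oas3 were the 2 members whose difference between vehicle and RSG was not called (adjusted p 0.066 and 0.27).

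**Figure D3:**
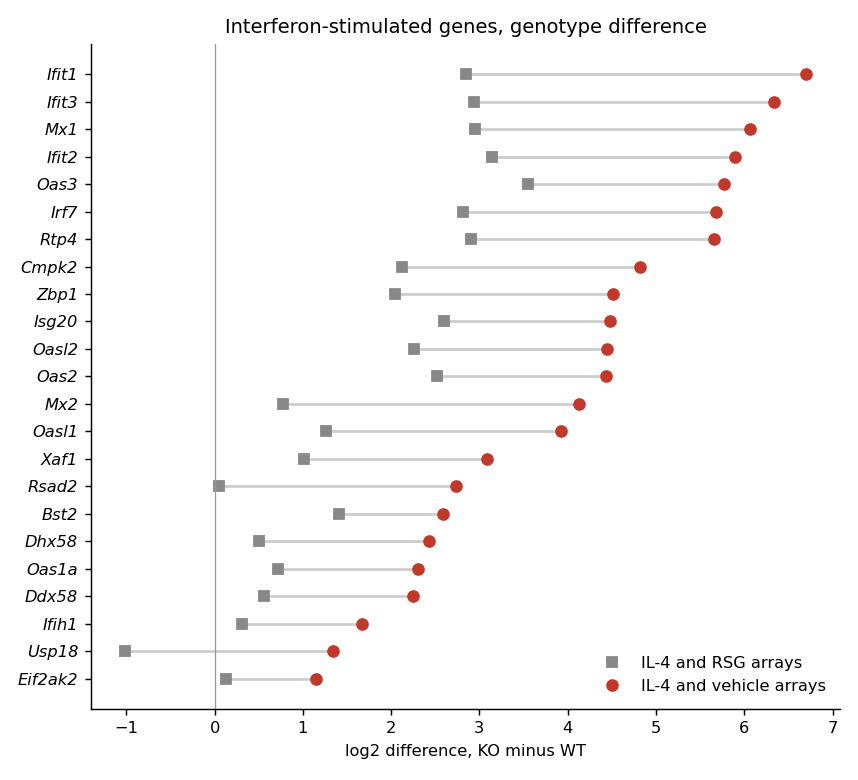
Log2 difference of KO minus WT (horizontal axis) for the 23 measured interferon-stimulated genes (rows), on IL-4 and vehicle arrays (red circles) and on IL-4 and RSG arrays (grey squares). All 23 circles lie right of their squares, and the median falls to 2.04 with RSG, against 4.43 with vehicle.

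Chemokines were higher in 14 of 19 cases and lower in 1 (median 3.46), and 13 were higher after quantile normalization. Cxcl10, a chemoattractant for T cells, had log2 ratios of 2.81, 3.42 and 3.64 in KO IL-4 and -4.07, -2.35 and -3.74 in WT IL-4 cultures (6.68 ± 0.37, adjusted p = 4.1e-10). Ccl4 and Ccl3, attractants of monocytes and lymphocytes, were higher by 3.95 ± 0.20 and 4.01 ± 0.23, Ccl5, an attractant of T cells, by 5.32 ± 0.49 and the neutrophil attractant Cxcl2 by 5.86 ± 0.36. Of 12 receptors 6 were higher (50%) and 1 lower (8.33%), beside 8.26% and 22.0% of all genes. Ccr2, the receptor that marks inflammatory monocytes, gave 3.66, 4.19 and 4.23 in KO and -2.42, -2.62 and -3.13 in WT, 108-fold higher. The groups did not overlap, and control arrays lay between them, at -0.11 to 0.54 in KO and 0.20 to 2.01 in WT.

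Inflammatory cytokines and mediators were higher in 15 of 22 cases and lower in 1, the prostaglandin synthase Ptges (-3.03 ± 0.55). Il1b, the cytokine IL-1β, had log2 ratios of 2.70, 2.88 and 3.49 in KO IL-4 and -1.91, -1.89 and -2.13 in WT IL-4 macrophages (5.00 ± 0.32, adjusted p = 2.3e-09). Saa3, an acute phase protein, was higher by 5.82 ± 0.44 and Il18, a cytokine related to IL-1β, was 3.03-fold higher. Nos2 (-0.61), Il1a (-0.01), Il12a (1.09) and Il23a (-0.58) were not called. Of 19 genes of Toll-like receptor signalling 8 were higher (42.1%) and 3 lower (15.8%), with 1 lower under either other scaling. Among all genes 8.26% were higher and 22.0% lower. Tlr2, the receptor for bacterial lipopeptides, gave -0.24, 0.05 and 0.01 in KO and -5.16, -5.27 and -4.84 in WT (5.03 ± 0.25, adjusted p = 1.2e-10). The KO values overlapped the control range of -0.01 to 0.28 in KO, so the difference lay in the low WT IL-4 arrays. Of 14 NF-κB factors and their regulators 8 were higher and 0 lower. The higher ones included the inhibitors Nfkbia (2.02 ± 0.14) and Nfkbie (2.33 ± 0.20), and also Nfkbiz (5.14 ± 0.25), while Rela (0.05) and Rel (-0.51) were not called.

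Of 14 genes of the IL-4 receptor pathway 4 were higher (28.6%) and 4 lower (28.6%), the deleted Stat6 among the lower ones. Among all genes 8.26% were higher and 22.0% lower. The feedback inhibitor Socs3 was higher by 2.75 ± 0.35 and Cish, another member of that family, lower by -1.70 ± 0.22. Cish had log2 ratios of 0.89, 0.85 and 1.29 in KO and 2.59, 2.88 and 2.66 in WT. Il13ra1, which pairs with the IL-4 receptor alpha chain, was higher by 1.66 ± 0.21, and Il4ra itself (0.45) was not called. Of 15 genes of costimulation and dendritic maturation 9 were higher (60%) and 3 lower (20%), with a median of 1.07. The lower share was near the 22.0% of all genes. The costimulatory ligand Cd86 had log2 ratios of 1.35, 1.44 and 1.70 in KO and -2.46, -2.50 and -1.97 in WT (3.81 ± 0.20). Il15, Fscn1, Relb and Cd83 were also among the higher genes. The 3 lower genes were the integrin Itgax (CD11c, -3.62 ± 0.36), Cd274 (PD-L1, -1.02 ± 0.15) and Slamf1.

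Proliferation genes were higher in 17 of 19 cases, with 0 lower (median 3.24), under all 3 scalings. Mki67, the Ki-67 antigen of cycling cells, had log2 ratios of 0.63, 0.91 and 1.21 in KO IL-4 and -3.68, -3.44 and -3.18 in WT IL-4 cultures, 20.4-fold higher (adjusted p = 2.4e-10). Its control arrays lay between -0.11 and 0.19 in KO and between 0.18 and 0.56 in WT, closer to the KO IL-4 arrays. Ccna2, cyclin A2, was higher by 4.91 ± 0.34 and Top2a, a topoisomerase of dividing cells, by 3.72 ± 0.30. DNA replication genes were higher in 14 of 20 cases and lower in 2, Pcna and E2f1, neither of which was called lower under the other scalings. Mcm5, a subunit of the replicative helicase, was higher by 2.69 ± 0.22 and the DNA polymerase gene Pole by 3.92 ± 0.36.

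**Figure D4:**
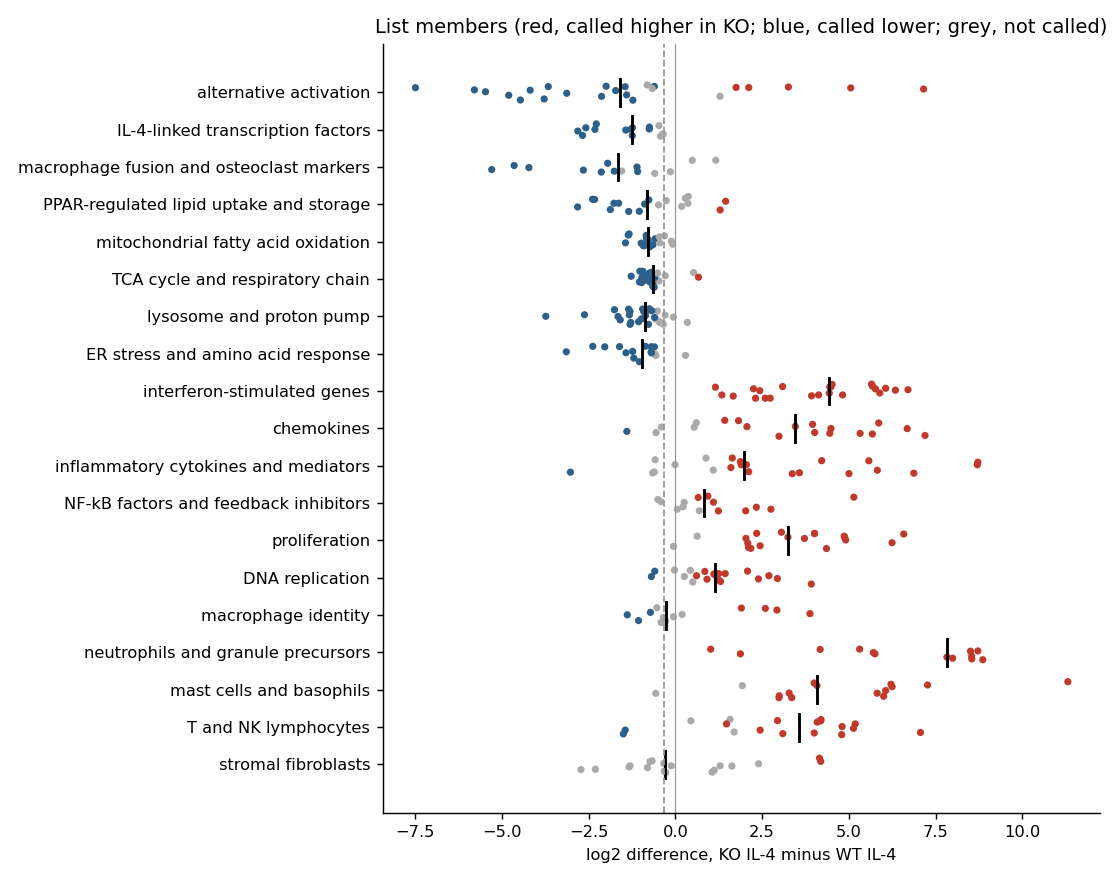
Log2 difference of KO IL-4 minus WT IL-4 (horizontal axis) for the members of 19 gene lists (rows), with genes called higher in KO in red, called lower in blue and not called in grey. Black bars mark list medians and the dashed line the median of all genes, -0.32. Interferon-stimulated, chemokine, proliferation and neutrophil lists have medians right of the line, and alternative activation has its median left of it.

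The macrophage label was checked against macrophage genes and against markers of other cells. Of 14 macrophage identity genes 4 were higher (28.6%) and 3 lower (21.4%) in KO, or 2 lower under either other scaling. Among all genes 8.26% were higher and 22.0% lower. The list median was -0.29, close to that of all genes. The list mean was -0.13 to -0.04 on KO IL-4 arrays and -0.57 to -0.46 on WT IL-4 arrays. Csf1r, the M-CSF receptor (0.19), Spi1, the myeloid factor PU.1 (-0.28), Adgre1, the F4/80 antigen (-0.42), and Lyz2 (-0.29) were not called. The Fc receptor Fcgr1 (3.88 ± 0.25) and the factor Maf (2.59 ± 0.16) were higher, and the integrin Itgam (CD11b, -1.39 ± 0.18) was lower. Since the values are ratios, whether any of these genes was absent cannot be read from them.

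Markers of granulocytes were the most raised of all lists. Of 13 measured markers of neutrophils and granule precursors 13 were higher in KO (median 7.83), and the list mean was 3.02 to 3.41 on KO IL-4 arrays and -3.44 to -3.07 on WT IL-4 arrays. S100a9, a calcium-binding protein abundant in neutrophils, had log2 ratios of 1.86, 1.83 and 2.00 in KO IL-4 cultures and stood at the lowest ratio of the table, 0.01, on all 3 WT IL-4 arrays. It was thus at least 372-fold higher, and its partner S100a8 was higher by 5.31 ± 0.26. Ngp, a granule protein, was higher by 8.86 ± 0.37 and Lcn2, an iron-binding lipocalin, by 8.72 ± 0.45, each with 1 WT array at the lowest ratio. Control arrays of both genotypes lay between, from -0.86 to 0.61 for S100a9, so the KO arrays were above and the WT arrays below the cultures without IL-4.

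Mast cell and basophil markers were higher in 13 of 15 cases (12 after quantile normalization), with a median of 4.08 and 0 lower. Mcpt8, a protease of basophils, had log2 ratios of 10.41, 10.23 and 10.61 in KO IL-4 and -0.36, -1.18 and -1.12 in WT IL-4 cultures (11.31 ± 1.10, adjusted p = 4.0e-07), the largest difference of all genes. Its call was lost in the fit with a variance trend. Fcer1a, the IgE receptor alpha chain, gave 7.59, 7.01 and 7.62 in KO and 0.44, 0.15 and -0.17 in WT (7.27 ± 0.65), and Hdc, which makes histamine, was higher by 6.06 ± 0.35. The mast cell tryptases Tpsb2 (1.93) and Tpsab1 (-0.57) were not called. The list mean was 4.17 to 4.74 on KO IL-4 arrays and -0.55 to -0.10 on WT IL-4 arrays.

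Markers of eosinophils were higher in 4 of 7 cases, led by the granule protein Prg2 with log2 ratios of 5.63, 5.48 and 5.78 in KO and -4.52, -4.85 and -1.32 in WT. Il5ra (-2.32), Ccr3 (0.50) and Siglecf (1.11), the surface receptors of that lineage, were not called. T and NK cell markers were higher in 13 of 18 cases and lower in 2, or 1 under either other scaling (median 3.55), with Klrd1, the NK receptor CD94, at 4.80, 4.63 and 5.15 in KO and -1.06, -0.50 and 0.75 in WT, and Cd3e (1.69) not called. B cell markers were higher in 4 of 10 cases (40%, beside 8.26% of all genes), or 3 after quantile normalization. The calls of Cd79a, Cd79b and Ebf1 were each lost under at least 1 alternative. Progenitor markers were higher in 5 of 10 cases, among them the factor Myb (97.1-fold higher), with the call of Flt3 lost on the 6 arrays alone. Another, Sox4 (-0.86), was lower, a call lost under either other scaling. Kit and Gata2, among the higher ones, are also on the mast cell and basophil list. Stromal fibroblast markers were higher in 2 of 18 cases (11.1%, beside 8.26% of all genes), Thy1 and Pdgfrb, and Thy1 is also on the T and NK list. The stromal list means were -0.37 to -0.32 on KO IL-4 arrays and -0.83 to -0.23 on WT IL-4 arrays. These marker levels moved with the interferon, chemokine, inflammatory and proliferation genes on the same 3 KO arrays, and their part in those results was not tested. Which cells of the cultures carried the transcripts was not measured.

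**Figure D5:**
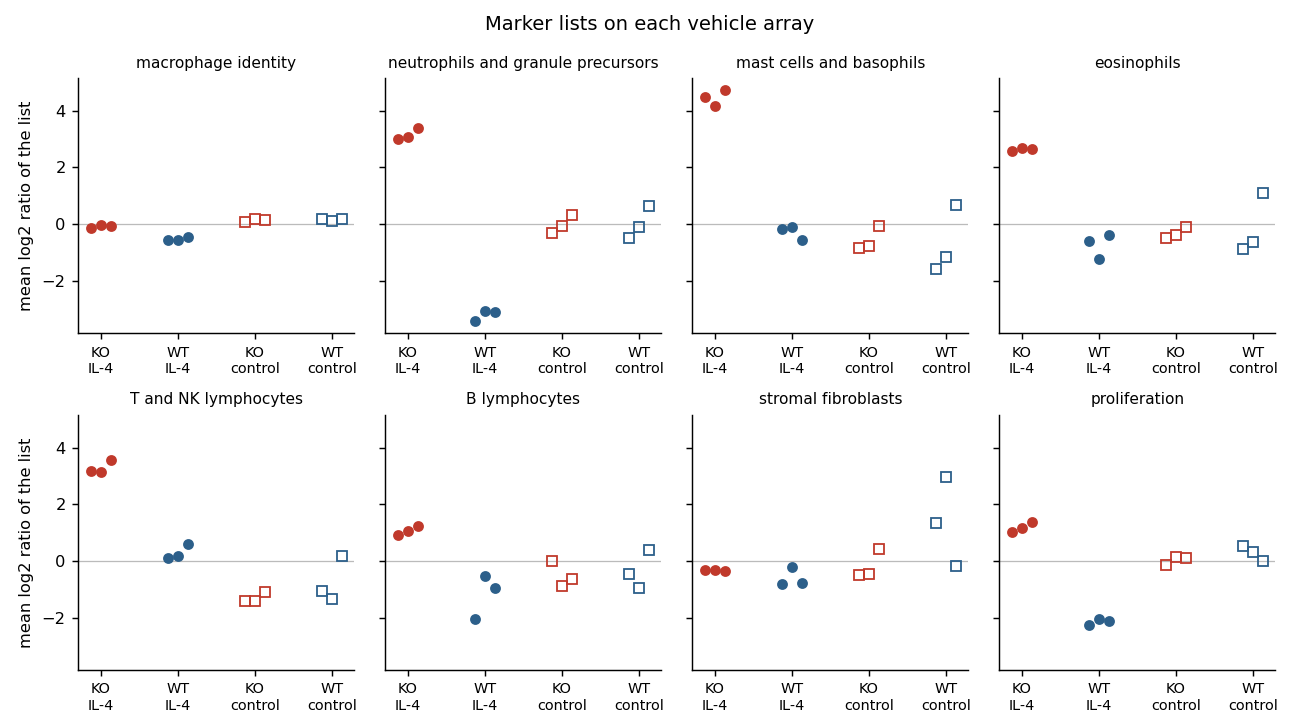
Mean log2 ratio (vertical axis) of the members of 8 gene lists on each vehicle array, for KO IL-4, WT IL-4, KO control and WT control cultures (left to right, 3 points each, filled with IL-4 and open without). Granulocyte, mast cell and lymphocyte markers were highest on the 3 KO IL-4 arrays, while macrophage identity means lay within 1 log2 unit on all arrays shown.

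Surface and secreted proteins of phagocytes moved in both directions. Of 19 scavenger and efferocytosis receptors 4 were higher and 7 lower (21.1% and 36.8%, beside 8.26% and 22.0% of all genes). Axl, a receptor kinase that binds apoptotic cells through Gas6, had log2 ratios of 0.12, 0.37 and 0.31 in KO and -5.85, -5.28 and -5.22 in WT (5.71 ± 0.20, adjusted p = 2.7e-12), while Mfge8, a bridging protein for apoptotic cells, was lower by -2.43 ± 0.17. The scavenger receptor Stab1 was higher by 4.01 ± 0.23. Both Axl and Stab1 were lowest on the WT IL-4 arrays, and KO IL-4 arrays lay above the KO control range for Axl (-0.90 to -0.45) and below all KO control arrays for Stab1. The C-type lectins Clec4e (6.44 ± 0.36) and Clec4n (3.96 ± 0.19), which sense microbial glycolipids and fungal mannans, were higher, and Clec4a2 (-0.94 ± 0.14) was lower. Of 14 matrix metalloproteinases and inhibitors 3 were higher (21.4%), including Mmp14 (2.97 ± 0.37), beside 8.26% of all genes. The 6 lower ones (42.9%, beside 22.0%) included the macrophage elastase Mmp12 (-1.28 ± 0.24) and the inhibitor Timp2 (-1.81 ± 0.18).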

How the data were processed

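For 24 Affymetrix arrays the authors deposited a single table of linear ratios. Per the study's methods, scans were processed with GC-RMA and GeneSpring, each array was scaled to its 50th percentile and each probe set divided by its median over the arrays; GCOS and GCRMA appear in the submitters' processing notes, with no version. Ratios were taken to log2 without further scaling. They ran from 0.01 to 1949.69, and 37 values in 27 probe sets stood at the minimum, where differences are bounds. The median over the arrays was 1 for 38889 probe sets (86.3%). Such ratios carry no absolute level, so signal over background is unknown, and precision is limited by how many arrays there are. The table had 0 unused columns of samples.

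After 64 control probe sets were left out, 45037 entered the test in limma 3.58.1 (R 4.3.3, lmFit and eBayes without a variance trend, 8 groups, two-sided, 16 residual and 1.35 prior degrees of freedom). The platform annotation gave 34945 probe sets 1 symbol, 932 several and 9160 none, for 18193 genes, and 34741 matched the RefSeq table. A gene was represented by the single-symbol probe set with the largest F over the 18 arrays outside the comparison. Among 9010 genes with 2 or more probe sets, 86 had probe sets called both ways. Lists, a gene's neighbours (20 on each side of Stat6) and motifs were described by counts and medians, without set tests. Members and lists were chosen with earlier results of these data known. Named genes were Stat6, the 10 largest called differences and the 10 largest moderated t values in each direction without overlap between groups, and, per list and direction, at most 5 called members by moderated t, 262 in all; members that were not called could be named with their values. Acp5, Usp18, Mx2 and Oas3 were named outside this rule. On simulated data, this comparison over 45037 probe sets recovered 10% of 50 probe sets altered by 1.5-fold and 32% at 2-fold. It recovered 52% at 4-fold and 56% at 8-fold, and 3 of 78 calls were false. All other probe sets were simulated without a difference in this comparison, whereas 10920 were called in the data. The Benjamini-Hochberg cut-off was therefore stricter in the simulation, and these shares are no estimate for the data. The mice of the 2 groups differ, so the mouse could enter only as a random block, with a correlation of 0.0114. Alternatives were centring, quantile normalization, a variance trend, the 6 arrays alone, the methods' t-test, the block, probe sets with a median of 1, a pseudocount of 0.1, leaving out each of the 6 arrays, and the median over all probe sets of a gene. Leaving out control arrays was chosen after seeing the data. Some genes of the study are not reported here.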

Additional observations from a re-analysis of the deposited data

Results flagged for a closer look

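For 16 of the named genes the KO minus WT difference with IL-4 was not the same on the RSG arrays as on the vehicle arrays, by limma's test of the difference between them with Benjamini-Hochberg adjustment over all probe sets. The value given is the difference with RSG less that with vehicle. Among interferon-stimulated genes it was -3.85 for Ifit1 (adjusted p = 9.8e-06), -3.41 for Ifit3, -2.70 for Cmpk2, -1.88 for Isg20, -2.74 for Rtp4 and -1.17 for Bst2. For the interferon signalling genes it was -1.66 for Stat2, whose KO minus WT difference was 0.29 with RSG and 1.96 with vehicle, and -0.95 for Irf9. The chemokine Cxcl10 had -2.87 (adjusted p = 0.019) and the receptor kinase Axl -2.71 (adjusted p = 2.1e-04). The other genes higher in KO were the membrane protein Ms4a4c (-1.67), the glycolytic enzyme Aldoc (-1.96), the securin Pttg1 (-1.20), the complement receptor C5ar1 (-1.35) and the peptidoglycan sensor Nod1 (-1.10). Acaa2, an enzyme of fatty acid oxidation, was lower in KO by -1.60 with RSG and by -0.90 with vehicle, a difference of -0.70 (adjusted p = 0.049). In all 16 genes the value was negative. For Acaa2 the genotype difference was larger with RSG, and for the others it was smaller. The named genes were chosen by calls on the vehicle arrays, whose difference is subtracted in this value. Genes picked as high there lean to negative values, so the shared sign is no separate result. Among all genes 31 had a higher and 82 a lower value. The vehicle and RSG cultures came from the same mice. With 3 arrays per group no test for an outlying array was applied.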

How the results depend on the processing

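The scaling changed the totals most. Centring each array gave 4811 lower probe sets, against 7794 without it, and quantile normalization gave 3956, with 7018 called in all against 10920. The share of calls that were higher was 46.7% after centring and 43.6% after quantile normalization, against 28.6%. Quantile normalization gave 4147 probe sets whose genotype difference depended on IL-4, against 6561. Under the other alternatives the counts stayed within 1.5 times, and with the mouse as a random replicate block 10919 probe sets were called. No fixed paired fit could be made, because the 2 genotypes share no mouse. Leaving out 1 array gave 9653 to 10950 called probe sets, 2597 to 3139 higher and 6718 to 7950 lower, a share of higher calls of 25.3% to 30.4%, 5484 to 6438 that depended on IL-4 and 63.2% to 66.9% called the same way with RSG, against 63.3%. The methods' t-test called 8386 probe sets after Benjamini-Hochberg adjustment and 11647 at its unadjusted threshold. Of 262 named genes 218 kept their call under every alternative in which they were tested. Centring lost 19 calls and quantile normalization 25, none of interferon-stimulated genes. The median over all probe sets of a gene, which has no test, moved the change of 66 named genes by more than the spread between replicates, left 67 within it and reversed the sign of Dlst (-0.089) and Itgav (0.48).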

Other observations

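The class I molecule H2-K1 was lower in KO with IL-4 (-0.87 ± 0.18), with log2 ratios of -0.32, -0.04 and -0.14 in KO and 0.34, 0.90 and 0.88 in WT, and it was also lower without IL-4 (-2.50 ± 0.18). Another class I molecule, H2-D1, was lower with IL-4 too, with log2 ratios of -0.41, -0.04 and -0.08 in KO and 0.72, 1.04 and 0.70 in WT, a call lost after quantile normalization. The call of H2-K1 with IL-4 was lost after quantile normalization and with the methods' t-test. Its 4 probe sets had a median difference of -0.27 with IL-4. H2-Oa (3.20 ± 0.32) and H2-Ob (3.68 ± 0.54), the chains of a class II chaperone known from B cells, were higher in KO with IL-4, while the classical class II genes H2-Aa (-0.56), H2-Ab1 (-0.81) and Cd74 (-0.74) were not called.

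Some lists of metabolic genes held calls in both directions. In glycolysis, 7 of 18 genes were lower in KO and 3 higher (38.9% and 16.7%, beside 22.0% and 8.26% of all genes). The glucose transporter Slc2a1 was lower (-1.44 ± 0.19). Aldoc was higher, at -0.29, -0.06 and 0.06 in KO IL-4 and -2.46, -2.92 and -2.18 in WT IL-4 cultures. Of 15 cholesterol synthesis genes 3 were lower (20%), 2 higher (13.3%) and 10 not called. These shares were near those of all genes, and the median was -0.26 beside -0.32. Dhcr7 (-2.29 ± 0.25) and Hmgcs1 (-1.09 ± 0.17) were among the lower genes and the isomerase Idi1 (1.63 ± 0.31) among the higher. Of 10 genes of polyamine metabolism and amino acid transport 5 were lower (50%) and 2 higher (20%). Under either other scaling 2 were lower. The arginase Arg2 (1.97 ± 0.22) was higher and the cationic amino acid transporter Slc7a1 (-1.97 ± 0.17) lower.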
